A study of Mus musculus with 6 samples.

Results

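The genes followed here mark dendritic cells and are Flt3, Clec9a, Xcr1, Zbtb46, Batf3, Fscn1, Siglech and Kmo. A probe set counted for a gene if the platform annotation named that gene and no other. Each of the 8 genes had 1 such probe set, and they made up 8 of the 19938 genes measured. All are established markers of these cells, and the rule that picked the probe sets used no measured value. The genes themselves were chosen with earlier results of these data known, so counts among them are a description.

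Starry-sky tumor-associated macrophages (SS-TAMs) were compared with the macrophages of normal germinal centers (GCMs), because the lymphoma in question arises from germinal center B cells. SS-TAMs were cut by laser from subcutaneous xenografts of the human cell line BL2, derived from Burkitt's lymphoma, in female Balb/c SCID mice aged 6-12 weeks, once the tumor measured 1.44 cm2. GCMs were cut from germinal centers of female CSF1R EGFP transgenic Balb/c mice of the same age that had received 2 doses of sheep red blood cells. There were 3 mice in each group, with 1000 cells and 1 array per mouse, and no group without a tumor or without immunization was set beside them. Groups therefore differed at once in strain (SCID or not), transgene, tissue, treatment and, as described below, the picking of cells. These cannot be told apart. SCID mice lack mature T and B cells. SS-TAMs were picked by staining for CD68, a protein that some dendritic cells also carry. GCMs came from mice in which the Csf1r promoter, which is active in macrophages and in part of the dendritic cells, drives EGFP. For the GCM mice, the tissue label is spleen and the source label speaks of lymph nodes.

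Dendritic cells sample antigen and present it to T cells. Their precursors grow in response to FLT3 ligand, and the mature cells fall into type 1 conventional cells, which take up dead cells and cross-present their antigens to CD8 T cells, type 2 conventional cells, which mainly prime CD4 T cells, and plasmacytoid cells, which make type I interferon. On activation, conventional cells migrate to T cell zones, change their cytoskeleton and raise costimulatory molecules. In the spleen and in lymphomas they lie close to macrophages, with which they share many surface proteins.

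Values are probe set intensities on a linear scale, as processed by the authors, whose notes name RMA. Differences are log2 intensity of SS-TAMs minus GCMs from limma, and a gene was called at an adjusted p under 0.05. No detection calls were used. Instead, a value is described as above background if it exceeded the 95th percentile of 1210 probe sets for olfactory and vomeronasal receptors on the same array, which lay between 7.96 and 8.50. Median intensity was 6.1 to 6.5 per array. The 99th percentile was 241 to 284 on the SS-TAM arrays and 614 to 664 on the GCM arrays. After the authors' processing, bright values thus still differed by group. Of 5100 genes above background on all 6 arrays, 12.8% were called lower in SS-TAMs and 7.94% higher. Quantile normalization, which gives every array the same distribution, was among the alternatives run. Its value for Fscn1 and the calls it ended are given below. Beyond that, what the difference in bright values means for the brighter genes named below was not tested. The lowest correlation between arrays of 1 group was 0.967 and the highest between the groups 0.933, over all probe sets. With 3 arrays in each group, no exact permutation test can reach a p under 0.1, so every p here comes from the model fitted across all genes.

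The captured material was checked against markers first. Of 14 core macrophage markers measured, 10 were higher and none lower in SS-TAMs, and their summed intensity was 2609 to 3375 in SS-TAMs against 1157 to 1316 in GCMs. Without Cd68 and Csf1r, on which the capture or the reporter rests, 8 of 12 were higher. Adgre1 (F4/80) and Fcgr1 (CD64) were below background on all GCM arrays. T cell markers (7 of 10 lower) had sums of 96.0 to 125 against 1057 to 1414. B cell markers (2 of 10 lower) summed to 101 to 112 against 171 to 434, and markers of follicular dendritic cells, which are stromal cells and not dendritic cells in the sense used here, and of splenic stroma (3 of 7 lower) to 59.8 to 64.7 against 208 to 458. Fibroblast markers ran the other way, with 3 of 9 higher in SS-TAMs, none lower and sums of 680 to 1308 against 322 to 481. Sparc, a matrix protein of fibroblasts and other stromal cells, was at 598 ± 206 against 108 ± 34.0 (SD, n = 3; limma, adjusted p = 0.0093). The separation of the fibroblast sums rested on Sparc, and without it the sums of the groups overlapped. Markers of other cells thus differed in both directions, and their part in the results that follow was not tested. The lymphoma cells were human, whereas the arrays hold probe sets for mouse genes. How far the B cell markers read lymphoma cells in the SS-TAM captures was not tested. In such bulk samples, fewer cells of a type and less RNA per cell cannot be told apart.

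The bases upstream of the start site are shown for the 2 genes that were called and for Fscn1, the gene with the largest difference. Each sequence is the 250 bases before the start site in the RefSeq table of build GRCm38.p6, 5′ to 3′ on the gene's strand. It is reference sequence and not that of the mice used. Capitals mark every match, on either strand, to GAGGAA (a PU.1-like site), TGANTCA (AP-1) or TATAAA, which do not overlap one another here. The windows are Flt3 at chr5:147400490-147400739 on the minus strand, Clec9a at chr6:129408612-129408861 on the plus strand and Fscn1 at chr5:142960105-142960354 on the plus strand.
Flt3: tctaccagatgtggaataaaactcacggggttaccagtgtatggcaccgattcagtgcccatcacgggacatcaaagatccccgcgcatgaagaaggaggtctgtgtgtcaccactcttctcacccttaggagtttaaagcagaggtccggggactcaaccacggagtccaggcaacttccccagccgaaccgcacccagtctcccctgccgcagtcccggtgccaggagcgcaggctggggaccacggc
Clec9a: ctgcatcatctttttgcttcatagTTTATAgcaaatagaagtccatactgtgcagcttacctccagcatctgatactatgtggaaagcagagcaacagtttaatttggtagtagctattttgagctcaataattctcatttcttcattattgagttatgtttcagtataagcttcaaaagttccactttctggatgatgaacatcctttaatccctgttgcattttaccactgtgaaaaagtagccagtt
Fscn1: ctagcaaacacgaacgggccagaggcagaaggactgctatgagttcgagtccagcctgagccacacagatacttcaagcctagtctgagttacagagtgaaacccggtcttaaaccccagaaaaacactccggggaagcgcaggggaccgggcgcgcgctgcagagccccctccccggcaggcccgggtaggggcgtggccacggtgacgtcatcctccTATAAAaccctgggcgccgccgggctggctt

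Flt3 held none of the 3 motifs and had a GC content of 59.2%. Clec9a had a GC content of 35.6%, and its only match was TATAAA on the opposite strand, 226 bases before the start site. Fscn1 had 62.4% GC and held TATAAA on its own strand, 31 bases before the start site. Over the 32851 windows in the table, the median GC content was 52.4%, and 23.3% held GAGGAA, 6.75% TGANTCA and 12.4% TATAAA. Among the other members, Batf3 and Kmo held GAGGAA, Zbtb46 held TGANTCA, Xcr1 held TATAAA and Siglech held none. The Zbtb46 window belongs to a start site inside the gene. No motif was present in more than 3 of the 8 windows. A match is a description of letters, and binding was not measured.

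Of the 8 members, 6 were lower on every SS-TAM array than on any GCM array, but differences were small and only Flt3 and Clec9a were called. The 2 genes called lower compare with 4.74% of all genes called lower, and no member was called higher, against 5.16% of all genes. Without adjustment, limma gave p under 0.05 for 6 members in the lower direction and 1 in the higher. The share of all genes at that unadjusted threshold was not computed. Such counts, here and below, therefore have no background beside them. Groups that did not overlap in the lower direction were found for 11.5% of all genes, and in the higher direction, which held 1 member, for 18.5%. The median log2 fold change of the members was -0.31, against 0.04 over all genes. Their summed intensity was 63, 81.9 and 70.2 on the SS-TAM arrays and 93.1, 107.2 and 143.1 on the GCM arrays. These levels were low. Only Flt3, Xcr1, Fscn1 and Siglech were above background on all GCM arrays, and only Fscn1 and Siglech on all SS-TAM arrays, while Clec9a, Zbtb46, Batf3 and Kmo were below it on all 6.

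**Figure D1:**
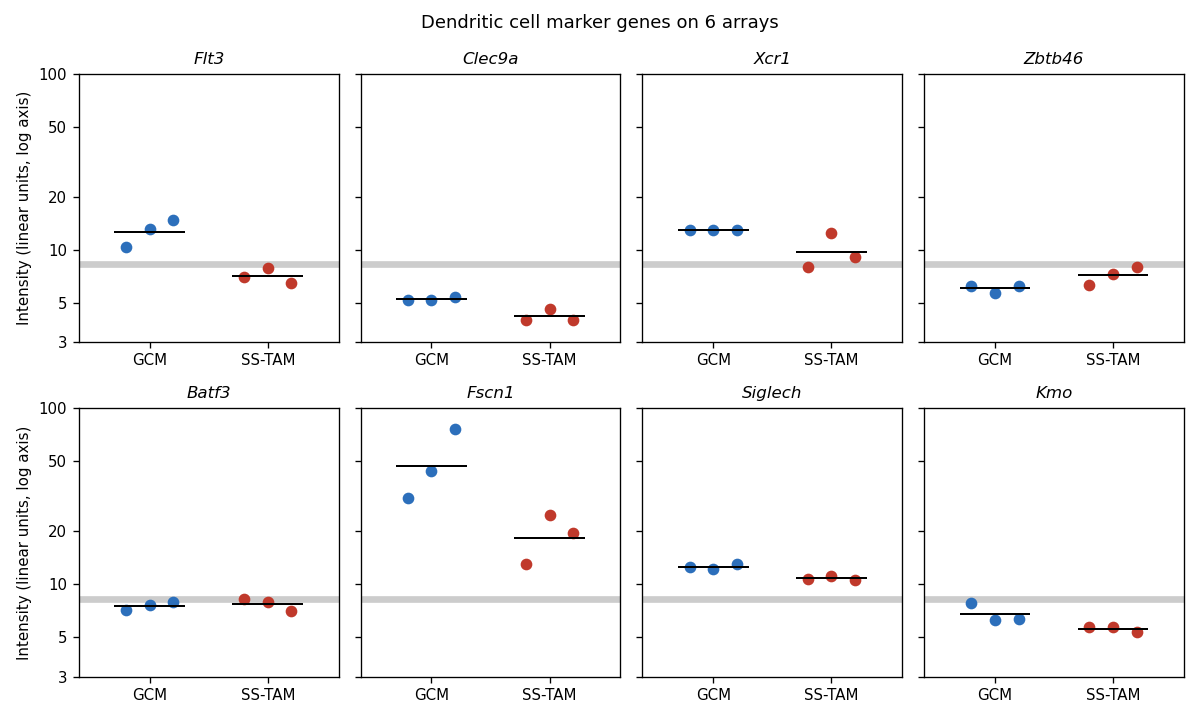
Intensity of the 8 dendritic cell marker genes on each array (linear units on a log axis), with GCM arrays in blue, SS-TAM arrays in red and replicates 1, 2 and 3 from left to right. Black bars are geometric means and the grey band is the range, 7.96 to 8.50, of the receptor 95th percentile on the 6 arrays. Only Fscn1 and Siglech lie above the band on all 6 arrays, and only Batf3 has groups that overlap.

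The plot of intensities by array shows how close most members lay to the receptor probe sets. The highest values were those of Fscn1 in GCMs, which were also spread widely.

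Flt3 is the receptor tyrosine kinase through which FLT3 ligand drives the growth of dendritic cell precursors, and it stays on conventional dendritic cells. It stood at 7, 7.9 and 6.5 on the SS-TAM arrays and at 10.3, 13.1 and 14.7 on the GCM arrays. All 3 GCM arrays were above background and above every SS-TAM array, and all 3 SS-TAM arrays were below background. Means were 7.13 ± 0.71 and 12.7 ± 2.23 (SD, n = 3), and the log2 fold change was -0.82 with an SE of 0.15 (95% confidence interval -1.19 to -0.46, limma, adjusted p = 0.026). Because SS-TAMs were below background, the estimate for Flt3 was at least 1.50-fold higher in GCMs, with the receptor 95th percentile as the SS-TAM level. Such limits, here and below, allow for background and not for the spread between arrays. Against the receptor 99th percentile (13.9, 13.3 and 14.8 on the GCM arrays), Flt3 was below background on every GCM array too. The call was not firm. With 1 array left out at a time, it held only without GCM replicate 1, and the adjusted p from limma ranged from 0.021 to 0.11.

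Zbtb46 encodes a zinc finger transcription factor found in conventional dendritic cells and their committed precursors, and not in macrophages or plasmacytoid cells. Its intensity was 6.3, 7.3 and 8 in SS-TAMs and 6.2, 5.7 and 6.2 in GCMs. This was the only member with every SS-TAM array above every GCM array, yet all 6 values were below background. Means were 7.20 ± 0.85 and 6.03 ± 0.29 (SD, n = 3). The log2 fold change was 0.25 (SE 0.10, 95% confidence interval 0.0027 to 0.50) and was not called (limma, adjusted p = 0.19). Its sign turned when arrays were scaled to macrophage markers (log2 fold change -1.31). That scaling set the mean of the core macrophage markers, without Cd68 and Csf1r, equal on all arrays and moved every gene by -1.56.

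Clec9a, Xcr1 and Batf3 belong to type 1 conventional dendritic cells. CLEC9A is a C-type lectin receptor that binds actin filaments exposed by dead cells. Clec9a intensity was 4, 4.6 and 4 in SS-TAMs and 5.2, 5.2 and 5.4 in GCMs. The groups did not overlap, but all 6 values were below background, between the percentiles 12.1 and 40.1 of the probe sets on their array. Means were 4.20 ± 0.35 and 5.27 ± 0.12 (SD, n = 3), with a log2 fold change of -0.33 (SE 0.074, 95% confidence interval -0.51 to -0.15, limma, adjusted p = 0.047). No fold is given, since neither group was above background. With 1 array left out at a time, Clec9a kept its call only without SS-TAM replicate 2, and the adjusted p from limma ranged from 0.017 to 0.16.

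A call at such a level is uncommon. Of the 10910 genes above background on none of the 6 arrays, 66 were called lower, or 0.605%, and 2.51% higher. Among the 1194 receptor genes that define the background, 16 were called lower and 17 higher. Clec9a is one of those 66 genes.

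XCR1 is the chemokine receptor through which type 1 cells follow XCL1, made by natural killer and activated CD8 T cells. Xcr1 stood at 8, 12.4 and 9.1 in SS-TAMs and at 12.9 on each of the 3 GCM arrays. SS-TAM replicate 2 was close to the GCM level, replicate 1 was below background and replicate 3 lay between them. Means were 9.83 ± 2.29 and 12.9 ± 0 (SD, n = 3), and the log2 fold change was -0.42 (SE 0.16, 95% confidence interval -0.81 to -0.021, limma, adjusted p = 0.18). Without SS-TAM replicate 2, Xcr1 was called lower (log2 fold change -0.60, limma, adjusted p = 0.020). Identical values on the 3 GCM arrays were seen for 182 of 7779 probe sets with a mean above 10, and on the 3 SS-TAM arrays for 24. The cause of these ties was not tested, and an SD of 0 is no measure of the spread between mice.

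BATF3 is the AP-1 family transcription factor on which type 1 cells depend. Batf3 intensity was 8.3, 7.9 and 7.1 in SS-TAMs and 7.2, 7.6 and 7.9 in GCMs, all below background. The groups overlapped, with means of 7.77 ± 0.61 and 7.57 ± 0.35 (SD, n = 3). The log2 fold change was 0.04 (SE 0.078, 95% confidence interval -0.16 to 0.23, limma, adjusted p = 0.80). The sign of so small a value changed with the processing, and it was negative after median centring, quantile normalization or macrophage scaling.

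Siglech encodes a sialic acid binding lectin of plasmacytoid dendritic cells that signals through DAP12 and is also found on microglia and some tissue macrophages. It stood at 10.7, 11.2 and 10.6 in SS-TAMs and at 12.6, 12.2 and 13 in GCMs. All 6 arrays were above background, the arrays of a group lay close together, and the groups did not overlap. Means were 10.8 ± 0.32 and 12.6 ± 0.40 (SD, n = 3), a 1.16-fold higher level in GCMs. The log2 fold change of -0.22 (SE 0.055, 95% confidence interval -0.35 to -0.083) was not called (limma, adjusted p = 0.065). It passed the threshold when each array was centred on its median, with a log2 fold change of -0.28 and a limma adjusted p of 0.037.

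Fscn1 had the highest level and the largest difference of the members. Its product fascin bundles actin filaments and builds the dendrites of mature dendritic cells. The gene is also active in other cells, among them endothelial and stromal cells. Fscn1 stood at 13, 24.9 and 19.5 in SS-TAMs and at 30.9, 44.2 and 76.6 in GCMs. Every GCM array was above every SS-TAM array, but GCM replicate 3 was far above the other GCM arrays, and the SS-TAM arrays were spread as well. Means were 19.1 ± 5.96 and 50.6 ± 23.5 (SD, n = 3), or 2.55-fold higher in GCMs. The log2 fold change was -1.35 (SE 0.39, 95% confidence interval -2.30 to -0.40), and it was not called (limma, adjusted p = 0.092). After quantile normalization it was -1.17 and not called either (limma, adjusted p = 0.14).

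Kmo encodes kynurenine 3-monooxygenase, an enzyme of tryptophan breakdown that mouse type 1 dendritic cells express. It stood at 5.7, 5.7 and 5.4 in SS-TAMs and at 7.8, 6.3 and 6.4 in GCMs. The groups did not overlap and all 6 values were below background. Means were 5.60 ± 0.17 and 6.83 ± 0.84 (SD, n = 3), and the log2 fold change of -0.28 (SE 0.096, 95% confidence interval -0.52 to -0.044) was not called (limma, adjusted p = 0.14).

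**Figure D2:**
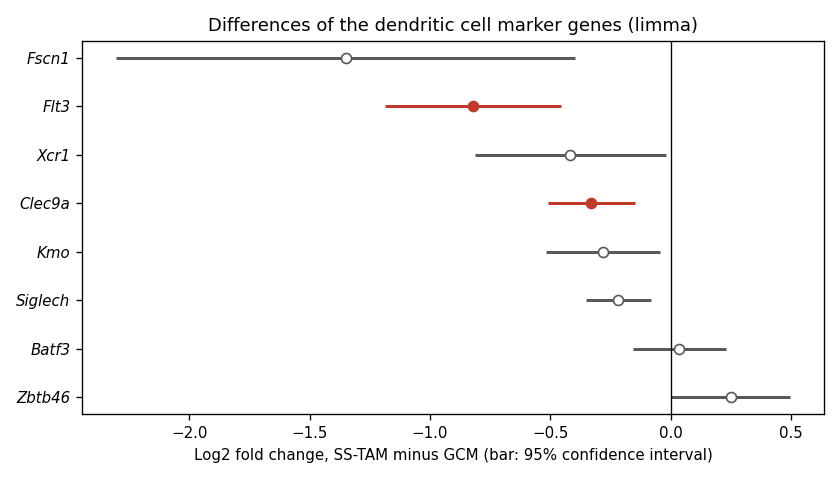
Log2 fold change (SS-TAM minus GCM, x axis) of each of the 8 genes from limma, with its 95% confidence interval as a bar; red filled points were called and open points were not. Fscn1 had the largest difference, -1.35, with the widest interval, and the called genes Flt3 and Clec9a stood at -0.82 and -0.33. Flt3 was below background in SS-TAMs, and Clec9a was below it in both groups.

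In the plot of fold changes, the interval of Fscn1 ran from -2.30 to -0.40 and was the widest, whereas that of Siglech ran from -0.35 to -0.083. Neither gene was called.

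For the 2 members above background in a group that spanned at least 1 on the log2 scale, the genes with the most similar pattern over the 6 arrays were listed as a description. For Flt3 these were Txk (Pearson r = 0.993), a kinase of T cells, Cep72 (r = 0.991) and 1700003H04Rik (r = 0.991), and 100 genes exceeded 0.95. Txk was the only one of these 3 that was called, and all 3 were below background on all 6 arrays. For Fscn1 they were Krt1 (r = 0.992), Ggps1 (r = 0.983) and Bcl11b (r = 0.980), none of them called, with Krt1 below background on all 6 arrays, and 48 genes exceeded 0.95. The 6 arrays fall into the same 2 groups for every gene, and the likeness was not tested.

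Other dendritic cell genes were then taken from lists of type 1, type 2, plasmacytoid, shared and mature cells. Of 62 listed genes, 57 were measured (Klk1, Runx2, Ly6a, Il4i1 and Cacnb3 had no probe set that named them alone), and 8 were lower and 6 higher. Over all genes, 4.74% were called lower and 5.16% higher, and the counts for each list below are read beside these shares. The median log2 fold change of the 57 genes was -0.06, against 0.04 over all genes. Calls went in both directions and differed by list.

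Among 13 other genes of type 1 cells, Cd8a and Ly75 were lower, Cadm1 was higher and 10 were not called (median log2 fold change -0.10). Cd8a, the CD8 alpha chain carried by splenic type 1 cells and by CD8 T cells, stood at 10.4, 10.5 and 9.4 in SS-TAMs and at 29.4, 21.3 and 48.1 in GCMs (log2 fold change -1.63, limma, adjusted p = 0.024). Ly75, the endocytic receptor DEC-205, was at 10.6, 7 and 9.2 against 16.2, 18.6 and 21.7 (log2 fold change -1.09, limma, adjusted p = 0.021). Both sets of arrays were fully separate. With 1 array left out at a time, the call of Cd8a held only without GCM replicate 2 or 3, and that of Ly75 only without GCM replicate 1 or SS-TAM replicate 1 or 2. Cadm1, an adhesion molecule on type 1 cells and on several epithelial and stromal cells, ran the other way, at 112 ± 22.4 against 26.3 ± 4.65 (SD, n = 3; log2 fold change 2.09, limma, adjusted p = 0.0034), and kept its call whichever array was left out and on macrophage scaling, where the log2 fold change was 0.53. Irf8, a transcription factor that type 1 cells need, was at 24.3 ± 2.80 against 26.8 ± 3.03 (SD, n = 3) and was not called (limma, adjusted p = 0.48).

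Of 10 type 2 genes, 4 were higher and none lower in SS-TAMs, with a median log2 fold change of 0.38. Of these 10, however, 6 were below background on all 6 arrays. Sirpa, which encodes the receptor for the "don't eat me" protein CD47 on type 2 cells and on macrophages, was at 239 ± 62.0 against 66.3 ± 13.7 (SD, n = 3; log2 fold change 1.84, limma, adjusted p = 0.0093). Clec12a, a C-type lectin that senses uric acid crystals, stood at 21.4, 25.2 and 47.9 in SS-TAMs and at 7, 7.5 and 7.9 in GCMs, where it was below background on all 3 arrays, so that it was at least 3.61-fold higher in SS-TAMs (limma, adjusted p = 0.015). Sirpa was called whichever array was left out, Clec12a only when an SS-TAM array was, and on macrophage scaling neither was called (0.28 and 0.43 on the log2 scale). Mgl2 (log2 fold change 0.62) and Klf4 (0.43) were below background on all 6 arrays, and both differences turned negative when scaled to macrophage markers (-0.94 and -1.12). Klf4 lost its call without any 1 of the 6 arrays, and Mgl2 without any 1 of the GCM arrays. Summed intensity of the list was 316.2, 257.8 and 408.5 in SS-TAMs against 128.2, 101.3 and 125.8 in GCMs, and the core macrophage markers were higher in SS-TAMs too.

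No gene of 10 other plasmacytoid genes was called by limma, although 1 had an unadjusted p under 0.05 in the lower direction and 3 in the higher (median log2 fold change 0.21). The brightest by the mean over all 6 arrays were Tlr9, the endosomal sensor of CpG DNA, at 23.3 ± 4.62 against 15.2 ± 2.37 (limma, adjusted p = 0.11), and Ly6d, a surface protein that B lineage cells also carry, at 16.6 ± 1.75 against 18.4 ± 0 (limma, adjusted p = 0.31; SD, n = 3). The value of Siglech was negative and the median of these genes positive.

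Among 9 genes shared by dendritic cells or their precursors, Cd24a, Dpp4 and Btla were lower and Csf2ra was higher. Cd24a, a surface glycoprotein of type 1 cells, B cells and immature T cells, stood at 16.3, 21.2 and 18.5 in SS-TAMs and at 452.1, 255.9 and 222.8 in GCMs. It was 15.9-fold higher in GCMs (log2 fold change -3.99, limma, adjusted p = 0.0015), and the call held whichever array was left out. GCM replicate 1 had the highest Cd24a and also the highest sum of B cell markers (434.2, against 171.4 and 172.3 on the other GCM arrays). Among SS-TAM arrays, replicate 2 had the highest Cd24a but the lowest sum of B cell markers (100.7, against 112 and 111.7). A link between Cd24a and B cells was not tested. Dpp4 (CD26), a peptidase also found on T cells, was at 12.5, 7.4 and 7.1 against 17.8, 25.3 and 28.7 (log2 fold change -1.43, limma, adjusted p = 0.031), a call that held only without SS-TAM replicate 1. Btla, a coinhibitory receptor that B and T cells also carry, was below background on all 6 arrays (log2 fold change -0.38), and its call held only without SS-TAM replicate 1 or 2. Csf2ra, the GM-CSF receptor alpha chain, which macrophages carry as well, was 2.30-fold higher in SS-TAMs (limma, adjusted p = 0.022), and it turned negative on macrophage scaling (log2 fold change -0.35). It kept its call only without SS-TAM replicate 1 or 2. Itgax, the CD11c gene used most often to define dendritic cells, was above background on none of the 6 arrays, at 7.73 ± 0.68 against 7.50 ± 0 (SD, n = 3).

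Among 15 genes of mature, migratory cells, Tmem123, Ccr7 and Birc3 were lower in SS-TAMs and none was higher (median log2 fold change -0.16). Ccr7, the chemokine receptor that leads mature dendritic cells, naive T cells and B cells to T cell zones, stood at 21.8, 43.1 and 35.6 in SS-TAMs and at 72.4, 113.8 and 137.9 in GCMs (log2 fold change -1.70, limma, adjusted p = 0.033). Tmem123, a transmembrane glycoprotein of broad expression, was at 15.6, 26.9 and 23.3 against 116, 304.2 and 258.2 (log2 fold change -3.29, limma, adjusted p = 0.0082). Birc3, an inhibitor of apoptosis induced by NF-kappaB, was at 7.7, 7.7 and 7.8 against 16.2, 13.7 and 15.2 (log2 fold change -0.96, limma, adjusted p = 0.0021). Since Birc3 was below background on all SS-TAM arrays, it was at least 1.78-fold higher in GCMs. All 3 genes had separate groups. Tmem123 and Birc3 were called whichever array was left out, and Ccr7 only without GCM replicate 1. Not called were Ccl22, a chemokine for CCR4-bearing T cells (10.4, 19.1 and 14.7 against 18, 55.6 and 45, limma, adjusted p = 0.15), Cd83 (19.5 ± 1.27 against 20.2 ± 2.22; SD, n = 3) and Cd40 (22.6 ± 1.55 against 23.5 ± 0.89; SD, n = 3). Fscn1, Tmem123 and Ccr7 share their lowest SS-TAM array, replicate 1, and their lowest GCM array, replicate 1. On GCM replicate 1 the sum of T cell markers was also the lowest of the GCM arrays (1057.4, against 1332.4 and 1414.4). On the SS-TAM arrays that sum was 115.3, 96 and 125.4, lowest on replicate 2 and not on replicate 1. A link between these genes and T cells was not tested.

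**Figure D3:**
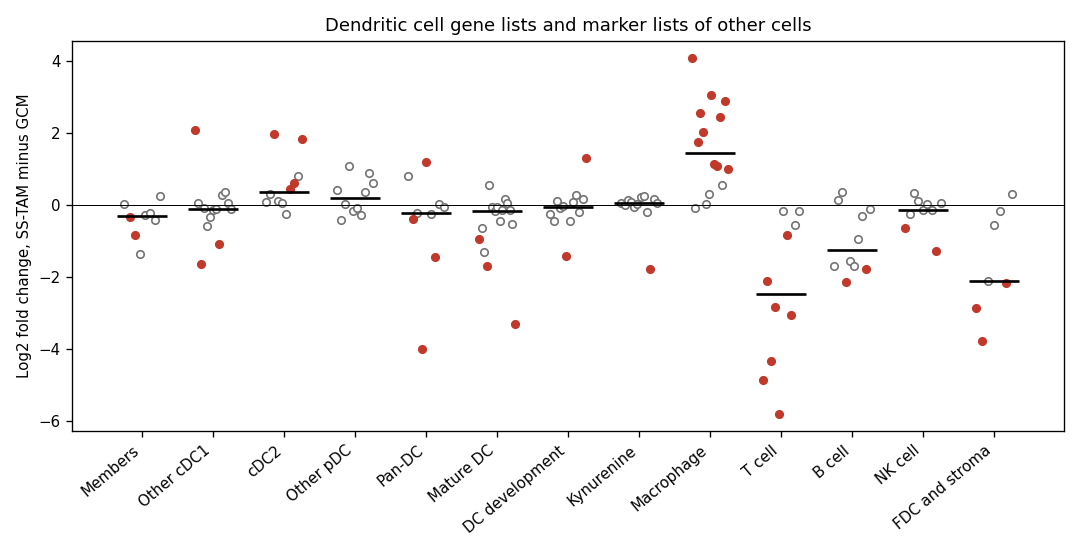
Log2 fold change (SS-TAM minus GCM, y axis) of each gene of the dendritic cell lists and of marker lists of other cells; red filled points were called by limma, open points were not, and black ticks are list medians. The 8 members lie between -1.35 and 0.25. Type 2 genes lean higher (median 0.38), although 6 of the 10 were below background on all 6 arrays. T cell markers reach lower than any dendritic cell list (median -2.47).

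The plot of lists sets the members beside other cells' markers. T cell markers had a median log2 fold change of -2.47 and B cell markers one of -1.25, against -0.31 for the 8 members, while macrophage markers had 1.44. Fibroblast markers had 1.06 (3 of 9 higher, none lower) and natural killer markers -0.13 (2 of 9 lower), and none of 7 endothelial markers was called by limma (1 had an unadjusted p under 0.05, lower).

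Genes that act with the members were examined next. Of 12 growth and transcription factors of dendritic cell development, Ikzf1 (Ikaros), which is also high in lymphocytes, was lower (18.3 ± 2.50 against 48.8 ± 4.94; SD, n = 3; log2 fold change -1.42, limma, adjusted p = 0.0030). Zeb2, a repressor active in plasmacytoid cells, monocytes and macrophages, was higher (36.0 ± 3.86 against 14.6 ± 1.39; SD, n = 3; log2 fold change 1.30, limma, adjusted p = 0.0024), although scaling to macrophage markers turned it to -0.25. Both calls held whichever array was left out. Flt3l, the gene of the FLT3 ligand, was at 8.77 ± 0.55 against 9.37 ± 1.94 (SD, n = 3) and was not called, so the receptor was called and its ligand was not; the difference between these was not tested.

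Of 7 ligands and signaling partners of the receptors, Tyrobp and Grb2 were higher. Tyrobp encodes DAP12, the adaptor of Siglec-H and of many macrophage receptors, and it also counts among the macrophage markers. Its mean was 323 ± 69.8 against 160 ± 2.20 (SD, n = 3; log2 fold change 1.00, limma, adjusted p = 0.015), whereas the value of Siglech was negative. Grb2, an adaptor of FLT3 and other kinases, had a log2 fold change of 0.96 (limma, adjusted p = 0.030). Both turned negative on macrophage scaling (-0.56 for Tyrobp and -0.60 for Grb2). Tyrobp lost its call without any 1 of the GCM arrays, and Grb2 kept it only without GCM replicate 1. Xcl1, the ligand of XCR1, was at 17.8 ± 6.00 against 19.6 ± 1.67 (SD, n = 3), with overlapping groups.

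Among 7 partners and relatives of BATF3, Jun was higher (29.6 ± 11.8 against 11.6 ± 0.57; SD, n = 3; log2 fold change 1.28, limma, adjusted p = 0.047), a call that held only without SS-TAM replicate 2, and the value was -0.28 on macrophage scaling. Batf, Batf2, Irf4 and Irf8 were not called. Of 8 cross-presentation genes, Sec22b, which helps to carry ER proteins to phagosomes, was lower (29.1 ± 5.83 against 46.1 ± 4.27; SD, n = 3; log2 fold change -0.68, limma, adjusted p = 0.048), and it was called only without SS-TAM replicate 3 when 1 array was left out.

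In the kynurenine pathway, 1 of 12 genes was called. Kynu, the kynureninase that acts on the product of Kmo and on kynurenine itself, was at 4.6, 4.8 and 8.3 in SS-TAMs, all below background, and at 21.4, 20 and 17.5 in GCMs (log2 fold change -1.78, limma, adjusted p = 0.011), where it was at least 2.33-fold higher. Its call was lost only without GCM replicate 2. Of the 12 genes, 9 were below background on all 6 arrays, among them Ido1, which acts at the first step (4.40 ± 0.26 against 4.33 ± 0.23; SD, n = 3).

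None of 8 actin bundling genes, 7 other sialic acid binding lectins or, apart from Clec12a, 7 lectins of the Dectin-1 cluster near Clec9a was called by limma. Unadjusted p was under 0.05 for none of the first 15 genes. The brightest bundling gene, Lcp1 (plastin of blood cells), was at 266 ± 58.1 against 228 ± 47.8 (SD, n = 3; limma, adjusted p = 0.57), with overlapping groups. Siglec1 and Cd22, the brightest of the 7 sialic acid binding lectins, had adjusted p of 0.20 and 0.35 from limma. Clec7a, the Dectin-1 gene, was at 52.7 ± 15.9 against 37.9 ± 14.8 (SD, n = 3).

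**Figure D4:**
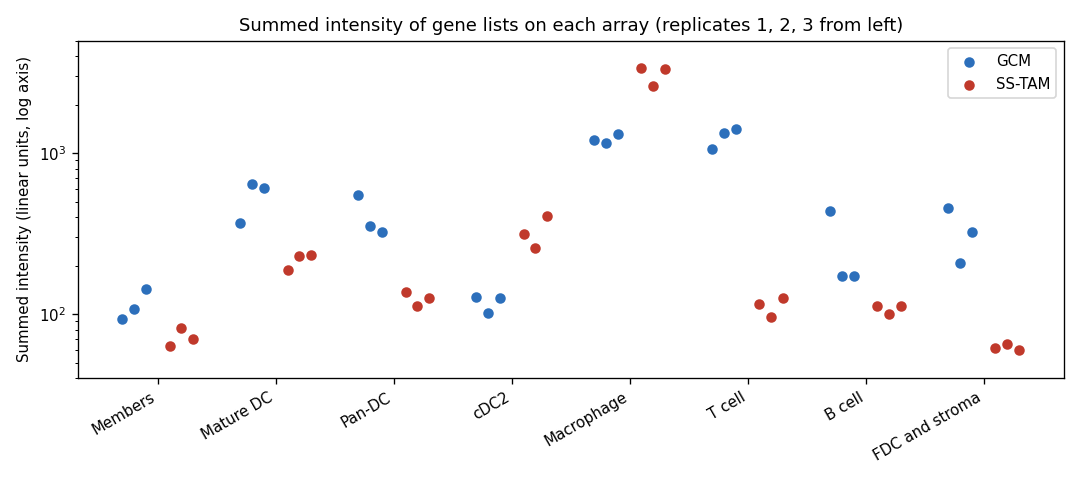
Summed intensity (linear units on a log axis) of the genes of 8 lists on each array, GCM in blue and SS-TAM in red, with replicates 1, 2 and 3 from left to right in each group. The 8 members sum to 63 to 81.9 in SS-TAMs and 93.1 to 143.1 in GCMs, whereas T cell markers sum to 96.0 to 125 and to 1057 to 1414.

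In the plot of summed intensities, the sums of the mature and the shared dendritic cell lists were above every SS-TAM sum on all GCM arrays, as were those of T and B cell markers, and the sum of type 2 genes was higher on all SS-TAM arrays, as was that of macrophage markers. The shared list rested on Cd24a. Without it, the sums were 120.8, 90.3 and 107.8 in SS-TAMs and 94.2, 96.8 and 102.3 in GCMs, and the groups overlapped. Of the 15 mature genes, 3 were called. The sums of the mature list were 188.1, 227.9 and 233.8 in SS-TAMs and 369.2, 640 and 605.4 in GCMs. Whether dendritic cells, lymphocytes or macrophages carried these transcripts was not tested.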

How the data were processed

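Gene expression was measured on Affymetrix Mouse Gene 1.0 arrays of amplified cDNA, 1 array for each of 3 SS-TAM and 3 GCM mice. The authors deposited probe set intensity values as linear numbers with 1 decimal. Their processing notes name RMA and limma, while the genome build, settings and versions were not given in the sources used. Rounding and the low levels of most of these genes limit small differences, and the number of arrays limits precision.

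Of 28944 probe sets, 21789 name 1 gene. The brightest probe set stood for each of 19938 genes. Log2 intensities were tested two-sided by lmFit and eBayes of limma (version 3.58.1, R 4.3.3) without covariates, with Benjamini-Hochberg adjustment over all genes and a threshold of 0.05. The procedure was run on simulated data with independent noise and shifts of at least 1 on the log2 scale. That simulation held no background level, rounding or ties, so it says nothing about smaller differences near background. Folds are ratios of geometric means.

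Named genes are the 8 members, up to 4 called genes of each list (or the 2 brightest where none was called) and, for members that varied, the 3 genes most alike. Other genes, such as Irf8, Itgax, Ccl22, Cd83, Cd40, Flt3l, Xcl1, Ido1 and Clec7a, were added after their values were seen. Members and lists were chosen with earlier results of these data known. Alternatives covered scaling, an offset, a filter on dim probe sets, how a probe set was chosen, array weights, the variance model, a replicate block, the background percentile and each array left out in turn. Promoter sequences came from RefSeq (GRCm38.p6), in which all 8 members matched.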

Additional observations from a re-analysis of the deposited data

How the results depend on the processing

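The direction of Flt3, Clec9a, Xcr1, Fscn1, Siglech and Kmo was the same under all alternatives run, while their calls were fragile. Flt3 lost its call with array weights (log2 fold change -0.85) and with the replicate block (-0.82, limma, adjusted p = 0.057), and ranged from -0.96 to -0.71 with 1 array left out. Clec9a lost it with an offset of 8 (-0.12) and the replicate block (-0.33, limma, adjusted p = 0.11), and ranged from -0.40 to -0.30. Xcr1 ranged from -0.60 to -0.28. Siglech was called with median centring (-0.28) and with the offset (-0.13). Batf3 turned negative with median centring (-0.026), quantile normalization (-0.037) and leaving out SS-TAM replicate 1 (range -0.014 to 0.099). With macrophage scaling the median over all genes went from 0.04 to -1.52, and the values were -1.97 for Xcr1, -1.31 for Zbtb46, -1.52 for Batf3, -2.91 for Fscn1, -1.77 for Siglech and -1.84 for Kmo. Under that scaling 8 members, 53 other dendritic cell genes and 19670 genes in all were called lower, and 1 other dendritic cell gene and 97 genes in all higher; it equates the macrophage markers and assumes that they do not differ. The number of members called lower was 1 with dim probe sets left out (Clec9a and Kmo then had no value), 1 with array weights, 0 with the replicate block and 0 to 2 with 1 array left out. Among the genes named from lists, quantile normalization ended the calls of Ccr7, Klf4 and Sec22b, the offset those of Cd8a, Jun and Sec22b, array weights those of Ccr7, Cd8a, Dpp4, Grb2, Klf4 and Sec22b, the variance trend that of Sec22b, and the replicate block those of Btla, Cd8a, Dpp4, Grb2, Jun, Klf4, Ly75 and Sec22b. Other dendritic cell genes called lower numbered 5 with array weights and 4 to 6 with 1 array left out, and those called higher 2 to 6. Over all genes, the replicate block gave 611 higher calls against 1028 without it, and leaving out 1 array gave 399 to 796 lower and 271 to 1159 higher, the fewest without GCM replicate 2. The replicate numbers were not taken to pair the mice, since the deviations of same-numbered arrays correlated at only 0.090, 0.087 and 0.019; every array did correlate best with the array of its own number in the other group, which is a hint from the data and not from the design. With the 99th receptor percentile as background, 0 members were above it on all SS-TAM arrays and 1 on all GCM arrays, and with the 90th percentile 4 were on all SS-TAM arrays. With the 95th percentile and 1 SS-TAM array left out, 2 to 3 members were above it on all remaining SS-TAM arrays. Depth here means signal over background, which limits Clec9a, Zbtb46, Batf3 and Kmo to levels that cannot be told from the receptor probe sets.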
